A study of Mus musculus with 8 samples.

Results

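Transcription factors that set up and keep luminal and epithelial identity in the mammary gland were followed as a set of 10 genes, Foxa1, Gata3, Elf3, Elf5, Ehf, Grhl1, Grhl2, Grhl3, Ovol1 and Ovol2. They were chosen by name and matched through their symbols to 10 of the 50143 Ensembl mouse gene IDs in the count file. Tumours had been grown from Py230, an established breast adenocarcinoma cell line, injected into mammary gland 4 of female C57BL/6 mice that had been ovariectomized at 6 weeks of age. Diets started 2 weeks later and were fed for 6 weeks: the 4 obese tumours came from mice on a high-fat diet (60% of calories from fat, 5.1 kcal/g), and the 4 lean tumours from mice on a regular diet (10% of calories from fat, 3.6 kcal/g). Mice on the high-fat diet gained 35% in body weight on average, and tumours were taken at day 56. Both groups therefore share the cell line, the strain and the ovariectomy. The RNA was that of whole tumours, host cells included, so fewer cells of a type and less RNA per cell cannot be told apart. The labels list each sample as a separate tumour, and replicate numbers only name the tumours.

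Libraries held 25.7 to 66.7 M counts, and a count of 0 allows a level of up to 0.0494 to 0.124 CPM (3 counts, counting error only; CPM is counts per 1 M counts, here with normalised library sizes). On the first principal component of the 1000 most variable genes, which held 88.6% of their variance, the 4 lean tumours lay between 70.2 and 93.7, and obese replicates 1, 2 and 4 between -136 and -96.5. Obese replicate 3 lay at 12.9, between the groups, and stood apart from its group in most of what follows. Results are given with it and without it, and the reason for its position was not tested. This tumour was singled out from these same data, as the obese tumour nearest the lean group. Leaving it out makes larger differences and smaller p-values likely, so fits without it are a description and not further support. Markers of the line's epithelial type were present in the lean tumours: the surface protein gene Epcam ran from 233 to 539 CPM and the adhesion gene Cdh1 from 240 to 386 CPM. In obese replicates 1, 2 and 4 Epcam stood at 0.495, 4.20 and 5.52 CPM.

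FOXA1 and GATA3 open chromatin and act with the oestrogen receptor in hormone-sensing luminal cells. ELF5 drives the alveolar, milk-producing fate, while ELF3 and EHF belong to the same epithelium-restricted branch of the ETS family. Grainyhead-like factors (GRHL1 to GRHL3) keep genes of cell junctions active, and the OVOL zinc fingers repress genes of the mesenchymal state, among them ZEB1. ZEB and SNAI proteins, the opposing repressors, bind E-boxes in the promoters of epithelial genes.

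Promoter sequence is shown for the members with a ZEB/SNAI-type E-box near their start, because Zeb1 and Zeb2, the genes of such repressors, were higher where most members were lower. The SNAI genes did not share this pattern: Snai2 was lower in obese tumours and Snai1 missed the threshold of the test described below. Repression of the members by any of these factors was not tested. RefSeq windows (GRCm38.p6) of the 250 bases before the start were matched for 7 of the 10 members, 9 windows in all. Ehf, Grhl2 and Ovol1 had no entry. The E-box CACCTG, read as CAGGTG on the other strand, lay in 4 of these windows, those of Foxa1, Elf3, Elf5 and Grhl3, and in 17.2% of all 32817 windows of the same length. Sequences run 5′ to 3′ on the gene's strand. Capitals mark the E-box and, in Foxa1, a forkhead match (GTAAACA) further upstream. The Foxa1 stretch shown lies within the annotated span of the gene, which reaches further upstream, to position 57546916. The E-box lies 23 bases before the start in Foxa1, 140 in Elf3 and 19 in Grhl3. These 3 stretches lie outside annotated exons:
Foxa1, chr12:57546122-57546361, minus strand: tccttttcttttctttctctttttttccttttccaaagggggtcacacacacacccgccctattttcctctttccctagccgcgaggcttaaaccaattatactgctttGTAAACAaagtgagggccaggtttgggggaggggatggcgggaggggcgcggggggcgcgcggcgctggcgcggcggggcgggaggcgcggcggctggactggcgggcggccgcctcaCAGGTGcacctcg
Elf3, chr1:135258569-135258722, minus strand: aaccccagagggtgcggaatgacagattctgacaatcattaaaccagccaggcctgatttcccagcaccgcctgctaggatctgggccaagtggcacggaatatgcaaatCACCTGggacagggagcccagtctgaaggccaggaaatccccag
Grhl3, chr4:135573633-135573882, minus strand: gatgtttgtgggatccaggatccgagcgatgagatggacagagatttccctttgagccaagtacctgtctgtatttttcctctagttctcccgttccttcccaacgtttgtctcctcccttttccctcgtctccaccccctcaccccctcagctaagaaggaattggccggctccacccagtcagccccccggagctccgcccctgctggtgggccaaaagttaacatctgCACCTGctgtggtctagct

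Among the E-boxes in the Elf5 window, those at 155 and 112 bases before the start are shown. The pieces below are 30 bases each, with the E-box in capitals, and the window lies within an exon of a longer annotated Elf5 transcript:
Elf5, chr2:103411931-103411960, plus strand: aggaccctgctaCACCTGggaggctgctta
Elf5, chr2:103411974-103412003, plus strand: cagaggaggtgcCACCTGcctggaagcagt

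The other motifs searched, on both strands, were those of the members' own families. The forkhead motif TGTTTAC was found in 1 window, that of Foxa1, against 3.16% of all windows. The ETS motif CCGGAA was found in 1, that of Gata3, against 12.0%. The motif AGATAA of GATA factors, held by 9.99% of all windows, and the grainyhead motif AACCNGTT, held by 1.78%, were found in none of the 9. These matches describe letters in short windows, not binding.

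All 10 genes passed the filter on low counts and were tested among 14887 genes with edgeR's quasi-likelihood test, two-sided, with Benjamini-Hochberg adjustment over all genes and a threshold of 0.05. Grhl3 reached the filter's level in none of the obese tumours and in all 4 lean ones, so it entered through the group in which it was high. Foxa1, Elf5 and Ovol2 reached it in 2 obese tumours, and Ehf and Grhl2 in 3, while all 4 lean tumours reached it for each. These genes too entered through the group in which they were high. In 9 of the 10 genes every obese tumour lay below every lean tumour, an ordering seen in 28.1% of tested genes. None lay wholly above, an ordering seen in 28.9%, and Ovol1 overlapped. With all 8 tumours 3 of the 10 passed the test and were lower in obese tumours (Elf3, Grhl3 and Ovol2), where 28.4% of all tested genes were called lower. Of the 3 called members, Grhl3 and Ovol2 had entered the test through the lean group. No member was called higher by edgeR, where 30.9% of genes were, and 1, Ovol1, was higher at an unadjusted p under 0.05. Without obese replicate 3, 9 members passed and were lower, against 33.6% of 15184 genes, and again none passed as higher (edgeR, with Ovol1 the 1 member higher at an unadjusted p under 0.05), against 31.1%.

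The median log2 change over the 10 genes was -3.16 with all tumours and -6.45 without obese replicate 3, while the median over all tested genes was -0.04 and -0.06. Log2 changes are obese minus lean, each with its standard error. With edgeR the number of members called therefore turned on 1 tumour, while the direction did not. The number also turned on the test. With all tumours limma-voom called 9 members lower, with or without quality weights, and DESeq2 called 6, against 3 with edgeR.

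**Figure D1:**
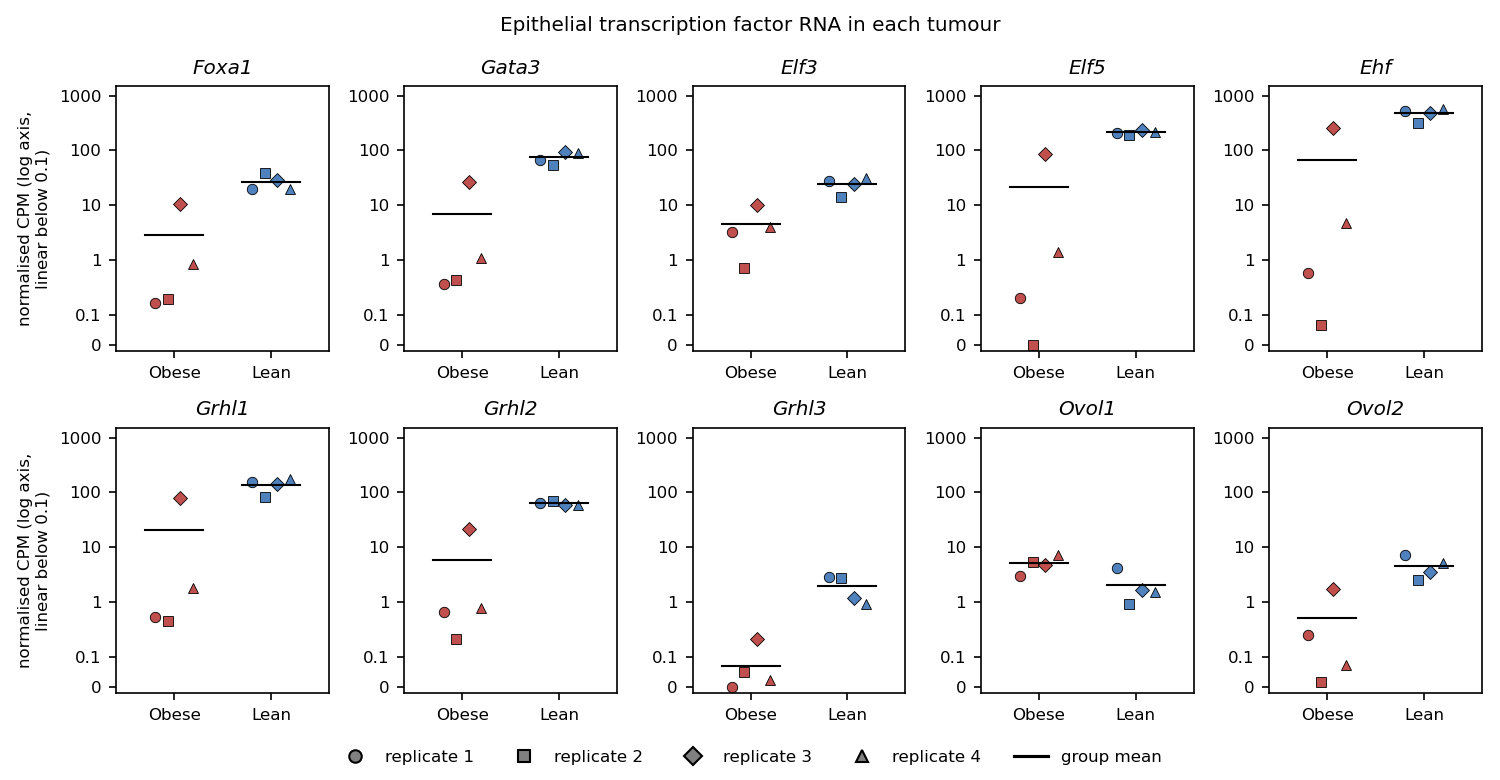
Normalised CPM of each of the 10 genes (vertical, log axis that is linear below 0.1) in the 4 obese and 4 lean tumours, with 1 marker shape per replicate and a bar at the group mean. In 9 panels the obese points lie below the lean points, with obese replicate 3 the highest of them, and in the Ovol1 panel the groups overlap.

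Foxa1 encodes the forkhead pioneer factor of luminal cells. Its RNA stood at 0.165, 0.198, 10.4 and 0.840 CPM in obese replicates 1 to 4 and at 19.7, 38.6, 29.2 and 20.2 CPM in lean replicates 1 to 4. Obese replicate 3 was far above the other obese tumours and still below the lowest lean tumour. The log2 change was -3.20 ± 1.28 and missed the threshold (edgeR adjusted p = 0.0606). With 3 obese tumours, replicate 3 left out, it was -6.02 ± 0.67 (edgeR adjusted p = 0.000226). The gene lies at chr12:57540628-57546916 on the minus strand.

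Gata3, on chr2:9857078-9890034 (minus strand), encodes the zinc finger factor needed for luminal differentiation. It stood at 0.372, 0.429, 26.4 and 1.08 CPM in the obese tumours and at 66.7, 55.1, 93.5 and 88.4 CPM in the lean tumours. The groups did not overlap, and obese replicates 1, 2 and 4 held at most 1.08 CPM. The log2 change was -3.42 ± 1.38 (edgeR adjusted p = 0.0619), and -6.88 ± 0.47 without obese replicate 3 (edgeR adjusted p = 4.5e-05).
Gata3 is also the helper T cell regulator, and T cell markers moved the same way: 8 of 10 passed and were lower, none higher, with a summed level of 45.1 to 101.4 CPM in obese and 119.3 to 293.7 CPM in lean tumours. Their median log2 change was -2.05, and their part in the Gata3 result was not tested. A protein-coding gene annotated on the opposite strand within Gata3, 4930412O13Rik, had 255 counts over the obese and 2668 over the lean tumours. Whether the authors counted by strand is not given in the sources used here, so reads of that gene and of Gata3 where they overlap cannot be told apart.

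Elf3 is the epithelial ETS factor with the smallest log2 change among the 9 lower genes. Obese tumours held 3.22, 0.709, 10.1 and 4.03 CPM, and lean tumours 28.0, 14.2, 24.2 and 31.5 CPM. The lowest lean tumour, replicate 2, was above obese replicate 3, the highest obese tumour. Elf3 fell by 2.44 ± 0.70 on the log2 scale (edgeR adjusted p = 0.0181), and by 3.21 ± 0.61 without obese replicate 3 (edgeR adjusted p = 0.00265). It lies at chr1:135253575-135258568 (minus strand).

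Elf5 and Ehf are neighbours on chromosome 2. Ehf (103263433 to 103303278, minus strand) and Elf5 (103411688 to 103450989, plus strand) are transcribed away from each other and lie 108.4 kb apart, with 3 annotated genes between them. Elf5 had 0.206, 0, 86.0 and 1.42 CPM in the obese tumours and 208.9, 195.3, 232.7 and 218.4 CPM in the lean tumours. Obese replicate 2 gave no Elf5 count, and the lean tumours were close together. For Ehf the values were 0.578, 0.0659, 259.8 and 4.80 CPM in obese and 523.5, 318.7, 484.2 and 572.2 CPM in lean tumours. Of the 9 lower genes, this pair spanned the widest range among obese tumours: obese replicate 3 held 40.2% of the lean mean of Elf5 and 54.7% of that of Ehf, while the other 3 averaged 0.253% and 0.382%. Accordingly the estimates with all tumours were wide, -3.28 ± 1.90 for Elf5 (edgeR adjusted p = 0.162) and -2.84 ± 1.91 for Ehf (edgeR adjusted p = 0.224). Leaving out obese replicate 3 gave -8.61 ± 1.14 for Elf5 (edgeR adjusted p = 0.000483) and -8.01 ± 1.30 for Ehf (edgeR adjusted p = 0.00128).

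Grhl1, on chr12:24572283-24617391 (plus strand), stood at 0.537, 0.445, 78.2 and 1.78 CPM in the obese tumours and at 156.4, 81.3, 140.8 and 176.7 CPM in the lean tumours. Obese replicate 3 came close to lean replicate 2, the narrowest gap in relative terms between the groups of the 9 lower genes. The log2 change was -2.77 ± 1.58 (edgeR adjusted p = 0.156) and, without obese replicate 3, -7.21 ± 0.63 (edgeR adjusted p = 8.6e-05). Grhl2, the family member most used as a marker of the epithelial state, lies at chr15:37233036-37363569 (plus strand). It had 0.661, 0.214, 21.9 and 0.792 CPM in obese and 64.1, 70.2, 58.9 and 60.2 CPM in lean tumours, and its lean values varied little, at 63.3 ± 5.09 CPM (SD, n = 4). Its log2 change was -3.42 ± 1.36 (edgeR adjusted p = 0.0598), and -6.87 ± 0.45 without obese replicate 3 (edgeR adjusted p = 4.04e-05).

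Grhl3, known for its part in the skin barrier, was scarce in all tumours. Its counts were 0, 3, 11 and 1 in the obese and 117, 145, 60 and 51 in the lean tumours, that is, 0, 0.0494, 0.213 and 0.0240 CPM against 2.87, 2.78, 1.17 and 0.906 CPM. Lean replicates 1 and 2 held the highest levels, and the groups did not overlap. Grhl3 fell by 4.58 ± 0.90 on the log2 scale (edgeR adjusted p = 0.0041), the largest estimate of the 10 with all tumours, and by 5.89 ± 0.83 without obese replicate 3 (edgeR adjusted p = 0.000647). Obese replicate 3 held 11.0% of the lean mean of Grhl3 (chr4:135541888-135573630, minus strand), the lowest share among the 9.

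The OVOL genes parted. Ovol2 (chr2:144305175-144332146, minus strand) stood at 0.248, 0.0165, 1.74 and 0.0720 CPM in obese and at 7.22, 2.55, 3.47 and 5.15 CPM in lean tumours, with no overlap. It fell by 3.12 ± 1.18 (log2, edgeR adjusted p = 0.0492) and by 5.55 ± 0.87 without obese replicate 3 (edgeR adjusted p = 0.00106). Leaving out any other single tumour, or the filter on low counts, ended the Ovol2 call, with edgeR adjusted p-values from 0.0604 to 0.105.
Ovol1 (chr19:5549136-5560646, minus strand) had 3.01, 5.42, 4.74 and 7.25 CPM in obese and 4.10, 0.920, 1.66 and 1.53 CPM in lean tumours. Lean replicates 2, 3 and 4 lay below every obese tumour, and lean replicate 1 lay above obese replicate 1. The log2 change of Ovol1 was 1.32 ± 0.51 and missed the threshold (edgeR adjusted p = 0.0531). Without lean replicate 1 it was 1.90 (edgeR adjusted p = 0.00993), and without obese replicate 1 the edgeR adjusted p was 0.0458. By limma-voom Ovol1 was called higher (adjusted p = 0.0155), as it was by DESeq2 (adjusted p = 0.0281).

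Lean replicate 1, the lean tumour highest in Ovol1, Ovol2 and Grhl3, also had the highest summed level of keratinocyte markers. Of the 10 keratinocyte markers 4 were tested, and 2 of these passed as lower in obese tumours and none as higher. In lean replicate 1 the 10 summed to 613.9 CPM, against 178.6, 131.7 and 57.2 CPM in lean replicates 2 to 4 and 3.17 to 34.7 CPM in the obese tumours. Krt10, a keratin of the upper epidermis, stood at 251 CPM there, against 5.65 to 8.71 CPM in the other lean tumours. It was 1 of 6 markers highest in lean replicate 1. Lgals7, the galectin-7 gene, was highest in lean replicate 2, at 164 CPM against 143 CPM in replicate 1, 2 markers were highest in obese replicate 1, and Flg was at 0 in all 8 libraries. Without lean replicate 1, Grhl3 fell by 4.36 ± 0.94 (log2, edgeR adjusted p = 0.00957), the Ovol2 change was -2.85 ± 1.25 and missed the threshold (edgeR adjusted p = 0.0901), and Ovol1 passed as higher, as given above.

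**Figure D2:**
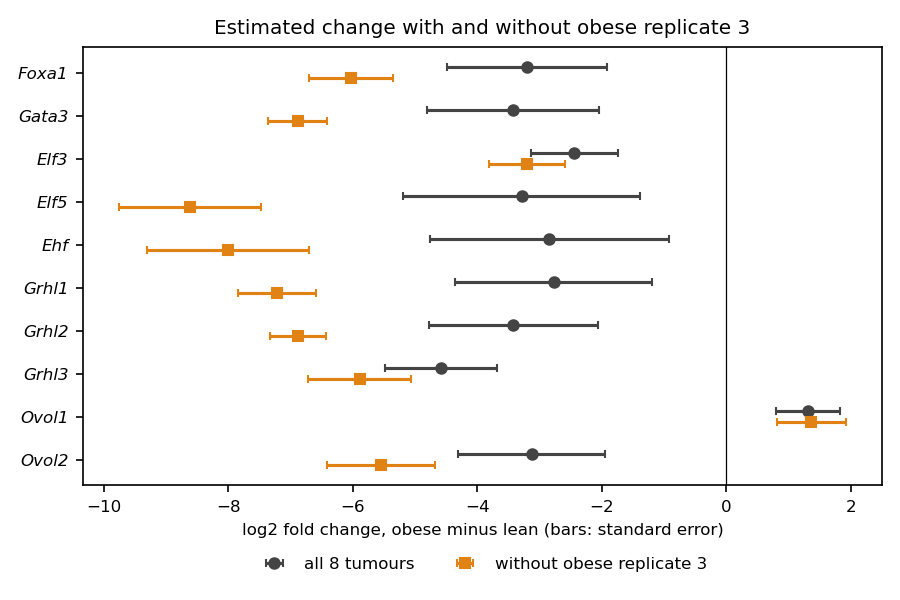
Log2 fold change of each of the 10 genes, obese minus lean (horizontal), from the fit to all 8 tumours (circles) and without obese replicate 3 (squares), with bars of 1 standard error. Without that tumour 9 estimates move further below 0, from -3.28 to -8.61 for Elf5, and Ovol1 stays near 1.3.

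Set side by side per length, as RPKM (counts per kilobase of exon per 1 M counts), the members covered a wide range in lean tumours. Ehf was highest at 85.1 ± 19.7 RPKM (SD, n = 4), followed by Elf5 at 36.4 ± 2.68, Grhl1 at 25.1 ± 7.41 and Gata3 at 19.1 ± 4.56. The middle of the order held Elf3 at 11.0 ± 3.37, Foxa1 at 8.09 ± 2.69 and Grhl2 at 7.35 ± 0.591 RPKM. At the low end were Ovol2 at 2.18 ± 0.971, Grhl3 at 0.693 ± 0.372 and Ovol1 at 0.588 ± 0.402 RPKM. Neighbours within 1 SD of each other were Grhl1 and Gata3, Elf3 and Foxa1, Foxa1 and Grhl2, and Grhl3 and Ovol1. Lean tumours were thus richest, per length, in RNA of the neighbours Ehf and Elf5.

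The order was different in obese replicates 1, 2 and 4, where Elf3 and Ovol1 took the first 2 places. Ovol1 was at 0.864, 1.55 and 2.08 RPKM in these tumours and Elf3 at 1.45, 0.320 and 1.82 RPKM, while Ehf did not pass 0.861 RPKM in any of them. Obese replicate 3 kept the lean order at the top, with Ehf at 46.6, Elf5 at 14.6 and Grhl1 at 14.1 RPKM.

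**Figure D3:**
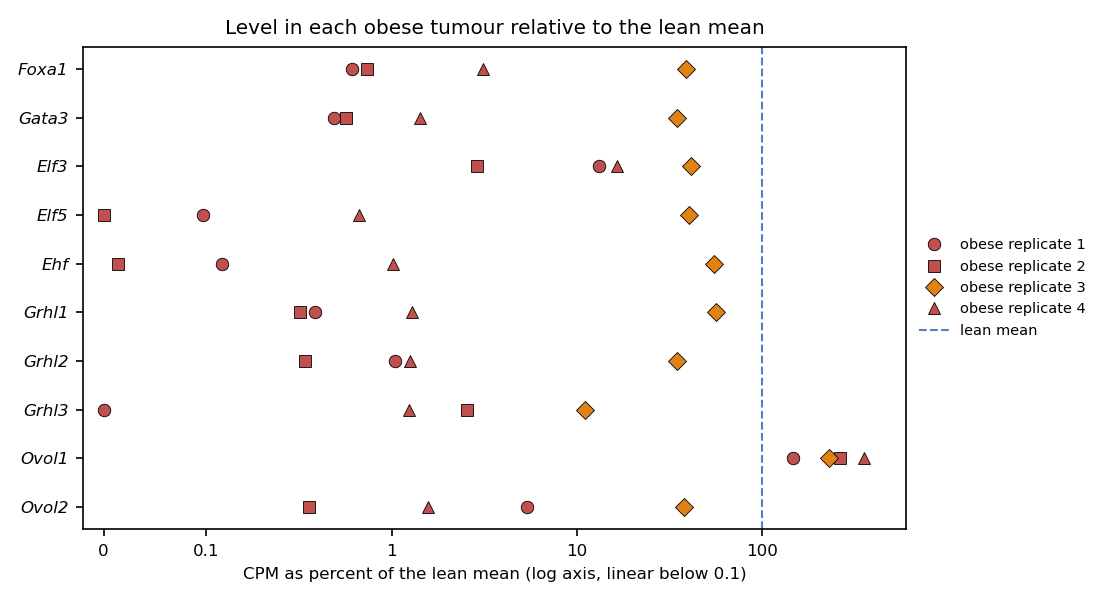
CPM in each obese tumour as a percent of the mean of the 4 lean tumours (horizontal, log axis that is linear below 0.1), for each of the 10 genes, with 1 marker per tumour and a dashed line at 100%. For 9 genes obese replicate 3 lies at 11.0 to 56.4% and the other tumours far to its left, except for Elf3, and all 4 Ovol1 points lie right of the line.

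Obese replicate 3 was the highest obese tumour for the 9 lower genes and held 11.0 to 56.4% of their lean means, with a median of 38.7%. The other 3 obese tumours together averaged 0.253 to 10.8% of the lean means, with a median of 0.877%. Obese replicate 4 came second in 7 of the 10 genes. Expressed on a line from the mean of the other 3 obese tumours (0) to the lean mean (100), obese replicate 3 lay at 9.87 to 56.1 for the 9 genes, with a median of 36.3. Over the 2819 genes that were called and at least 4-fold lower without it, the median was 27.6 and the quartiles 13.9 and 39.9. Over the 999 genes at least 4-fold higher it was 38.4, with quartiles of 19.9 and 54.1. Genes of both directions across the transcriptome thus held intermediate levels in this tumour, as the members did.

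Profiles over the 8 tumours were compared as log2 CPM centred on each gene's mean, with the root-mean-square (RMS) difference as the measure of likeness. Among the 45 pairs of members, Elf5 and Ehf were closest (0.29), then Gata3 and Grhl1 (0.44), Gata3 and Grhl2 (0.51) and Foxa1 and Gata3 (0.58). Pairs that did not include Ovol1 ranged up to 3.13 with a median of 1.48, and the 9 pairs with Ovol1 ran from 2.43 to 5.40.
Among 12344 other genes, the 5 nearest to the members' median profile were Bricd5 (0.22), Gpc4 (0.23), Chdh (0.24), Tnfrsf21 (0.25) and Auts2 (0.26). Gpc4, a heparan sulfate proteoglycan, stood at 0.908, 0.956, 34.8 and 2.09 CPM in obese and 84.2 to 91.8 CPM in lean tumours. The nearest gene to Elf5 was Tfap2c (0.26), encoding the AP-2 gamma factor of luminal cells, and the nearest to Ehf was Slc28a3 (0.25), a nucleoside transporter gene. For Foxa1 it was Bhlhb9 (0.26), for Gata3 Rem2 (0.19), for Grhl1 Fam20a (0.20), for Grhl2 Myo5b (0.21) and for Ovol2 Fam221a (0.41). Elf3 lay nearest to the T cell gene Cd8a (0.27), which had 4.91, 1.29, 14.1 and 8.57 CPM in obese and 49.6, 16.3, 42.0 and 40.3 CPM in lean tumours. Lean replicate 2 was the lowest lean tumour for both. Ovol1 lay nearest to Anxa1 (0.33), the annexin A1 gene, which rose by 1.60 ± 0.37 (log2, edgeR adjusted p = 0.008).

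Relatives of the members in the FOXA, GATA, grainyhead/CP2, SPDEF and OVOL families were mostly scarce: 6 of 12 were tested, 2 passed as lower and 1 as higher, with a median log2 change of -1.57. Gata6 fell by 3.08 ± 0.59 (edgeR adjusted p = 0.00387) and the CP2-related gene Tfcp2l1 by 2.72 ± 0.65 (edgeR adjusted p = 0.00872). Ubp1, a widely expressed CP2 factor, rose by 0.66 ± 0.12 (edgeR adjusted p = 0.00268). Of 19 tested ETS genes outside the epithelial branch, 5 passed as lower and 7 as higher, with a median of 0.12. Ets1 rose by 2.14 ± 0.26, Elf4 by 1.44 ± 0.18 and Elk3 by 1.19 ± 0.12, while the lymphoid gene Spib fell by 2.10 ± 0.34 (edgeR adjusted p from 0.000319 to 0.00195). ETS genes outside the branch therefore moved both ways, as did all tested genes, of which 28.4% were called lower and 30.9% higher. The 3 epithelial members all lay lower, but only Elf3 passed with edgeR and all tumours.

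Other transcription factors of luminal cells were mixed, with 7 of 14 lower, 4 higher and a median of -1.04. Tfap2a (-1.03 ± 0.21), Tfap2b (-5.25 ± 1.17) and Myb (-2.33 ± 0.49) fell, and Tbx3, a T-box gene, rose by 3.83 ± 0.66 (edgeR adjusted p from 0.00243 to 0.0067). Factors of basal cells were lower as well: 5 of 5 tested passed, with a median of -4.03. Among them were Id4 (-6.74 ± 1.59), Sox9 (-1.31 ± 0.31), Mef2c (-1.78 ± 0.50) and Sox10 (-6.09 ± 1.73), with edgeR adjusted p from 0.0088 to 0.0181.

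Epithelial junction, polarity and surface genes, many of them known targets of the grainyhead-like factors, showed the same split by tumour as the members. Of 20 tested, 7 passed as lower with all tumours and 20 without obese replicate 3, none as higher, and in 19 the groups did not overlap. Their median log2 change was -3.33, and -7.19 without that tumour. Those that fell included the polarity gene Llgl2 (-3.22 ± 0.69), the claudin gene Cldn4 (-4.60 ± 1.15) and the protease inhibitor gene Spint1 (-2.84 ± 0.95), with edgeR adjusted p from 0.0062 to 0.0332.

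Milk protein genes, downstream of ELF5 in the alveolar programme, gave 3 of 8 lower, none higher and a median of -2.92, and 8 of 8 lower without obese replicate 3 (median -6.71). Wap, Csn1s1, Csn1s2a and Csn1s2b had at most 1 count in each of obese replicates 1, 2 and 4. These genes passed the filter through the lean group, so they could hardly be called higher. Lalba fell by 4.74 ± 1.15, Glycam1 by 4.07 ± 1.04 and Wap by 3.67 ± 1.35 (edgeR adjusted p from 0.00954 to 0.0456). Genes of hormone-sensing luminal cells gave 4 of 9 lower and 2 higher. Wnt4 fell by 6.48 ± 1.02 and Cited1 by 6.19 ± 1.0, while the growth factor gene Areg rose by 3.90 ± 0.87 and the surface antigen gene Ly6a by 1.73 ± 0.39 (edgeR adjusted p from 0.0017 to 0.00722).

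Transcription factors of the mesenchymal transition moved opposite to the members, with 5 of 7 tested higher, 1 lower and a median of 2.29. Zeb1 stood at 75.4, 107.7, 46.6 and 75.2 CPM in obese and at 9.50, 25.2, 17.3 and 10.4 CPM in lean tumours, with no overlap. It rose by 2.29 ± 0.38 and Zeb2 by 3.45 ± 0.36, while Twist2 rose by 4.51 ± 0.57 and Prrx1 by 4.67 ± 0.47 (edgeR adjusted p from 0.000321 to 0.00219). On the line from the other obese tumours to the lean mean, obese replicate 3 lay at 56.0 for Zeb1 and 62.7 for Zeb2. The gene of the SNAI repressor SLUG, Snai2, was chosen for mention after its values were seen, as the exception of the list: it fell by 4.92 ± 1.0 (edgeR adjusted p = 0.00506), from 9.67 to 94.2 CPM in lean to 0.330 to 2.28 CPM in obese tumours.

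Markers of host cells were followed beside these genes. Fibroblast markers, which share genes with mesenchymal tumour cells, gave 2 of 6 higher (Pdgfra and Pdgfrb) and 2 lower (Dcn and Lum), with a summed level of 414.3 to 1536 CPM in obese and 724.7 to 968.3 CPM in lean tumours. Leukocyte and macrophage markers gave 3 of 8 in each direction: Cd68, Adgre1 and Itgam rose, and Csf1r and Cd79a were among those that fell. Endothelial markers gave 2 of 5 lower (Tek and Emcn), and none of 5 adipocyte markers passed with edgeR, nor did any reach an unadjusted p under 0.05. Likewise 0 genes of the basal, junction, milk protein and T cell lists were higher at an unadjusted p under 0.05. The leukocyte markers summed to 758.2 to 954.4 CPM in obese and 488.2 to 1139 CPM in lean tumours, overlapping ranges, unlike the 9 lower members. The part of the cell makeup in the members' levels was not tested.

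**Figure D4:**
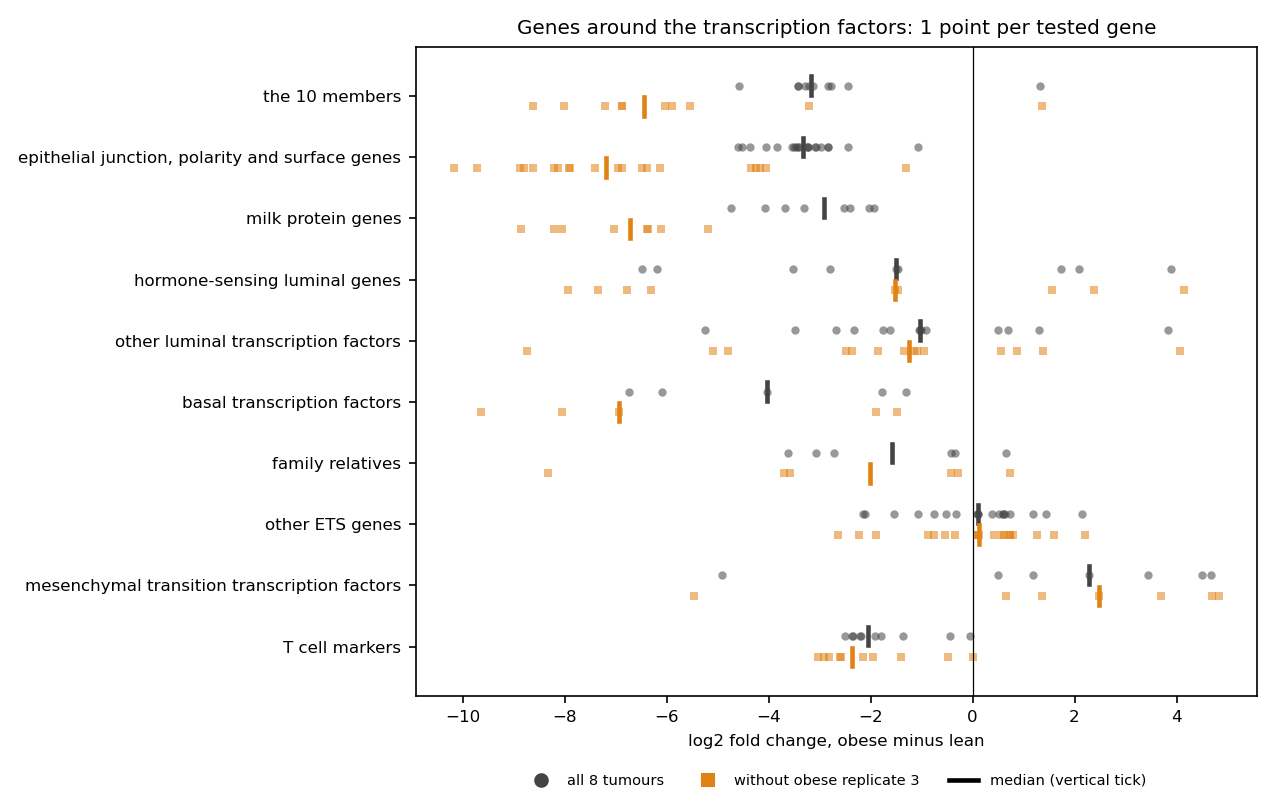
Log2 fold change, obese minus lean (horizontal), of every tested gene in the 10 members and in 9 lists around them, with 1 point per gene from all 8 tumours (dark circles) or without obese replicate 3 (orange squares), and a tick at the median. The members, epithelial junction genes and milk protein genes move from medians near -3 to -6.45, -7.19 and -6.71, and the mesenchymal factors have a median above 2 in both fits.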

How the data were processed

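RNA of 8 tumours was analysed. Counts of reads per gene, not normalised, are what the authors deposited, in a column for each tumour. Per the submitters' processing notes, the build was mm10 and the tools included STAR 2.5.2b, cutadapt 1.12 and HTSeq, beside bcl2fastq 2.18.0.12 and CASAVA 1.8. The annotation and the strand setting are not given in the sources used here. Symbols, coordinates and exon lengths came from GENCODE M21 (GRCm38). From the counts, genes were kept by edgeR's filterByExpr (minimum count 10, minimum total 15), scaled by TMM and tested with edgeR 4.0.16 in R 4.3.3. The standard error is the log2 change over the square root of F. Alternatives used limma 3.58.1, DESeq2 1.42.0, other scalings and filters, and leaving out each tumour. CPM and RPKM use TMM-scaled library sizes, and profiles use a prior count of 2.

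The members and the 14 gene lists were chosen with earlier results of these data known, and no list was tested as a set. Like the members, genes of the lists could pass the filter through the lean group alone, as some junction, basal and milk protein genes did. From each list the text names up to 4 called genes with the smallest p, or the 2 most abundant where none was called. Other genes of a list were named after their values were seen. Nearest profiles are the 5 genes closest to the members' median and the 1 closest to each. A few items these rules select are not reported here.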

Additional observations from a re-analysis of the deposited data

Results flagged for a closer look

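In 7 of the 20 groups of 4 tumours examined (10 genes in 2 conditions), 1 tumour lay further from its group than Dixon's ratio allows at 95%. The ratio was taken on normalised CPM, not on a log scale. Chance flags about 1 in 20 groups only where values are normally distributed, which skewed CPM values need not be. Whether the flags hold on a log scale was not tested. All 7 were obese replicate 3 as the highest obese tumour, so they are 1 tumour seen through genes that move together. The levels were 10.4 CPM for Foxa1, 26.4 CPM for Gata3, 86.0 CPM for Elf5, 259.8 CPM for Ehf, 78.2 CPM for Grhl1, 21.9 CPM for Grhl2 and 1.74 CPM for Ovol2. No lean group was marked in this way. What set this tumour apart was not tested.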

How the results depend on the processing

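Of the 10 members, 3 were called lower and 0 higher with edgeR and all tumours. The count of lower calls was 9 with limma-voom, 9 with voom and quality weights, and 6 with DESeq2, and each of these 3 called 1 member higher, Ovol1. Of all 14887 genes they called 4832, 5805 and 5072 lower and 4671, 5592 and 4604 higher. Leaving out 1 tumour at a time gave 2 to 9 lower calls, with 9 only without obese replicate 3, and 0 to 1 higher calls. In these fits 3136 to 5107 of all 15029 to 15220 tested genes were lower and 3820 to 4771 higher. No filter or a filter of 1 CPM in 4 tumours gave 2 lower calls, and Grhl3 was not tested under the latter. Over all genes 4148 of 19257 and 4052 of 13319 were lower in these 2 fits. No member changed direction in any of the 16 alternatives. Elf3 passed in all 16 (without obese replicate 4 only just, at an edgeR adjusted p that rounds to 0.05) and Grhl3 in all 15 in which it was tested, Ovol2 in 8, Ovol1 in 5, Foxa1, Gata3 and Grhl2 in 4, and Elf5, Ehf and Grhl1 in 3. Scaling by upper quartiles or library size alone left the members' calls at 3 and 0, but moved the median log2 change of all genes from -0.04 to -0.25 and -0.22. The share of all called genes that was higher went from 52.1% to 41.2% and 42.3%. Replicate numbers are names given in order. No paired analysis was possible because the labels carry no shared numbers between groups. Depth limits the lowest values: Grhl3, Elf5, Ovol2, Ehf and Foxa1 had obese tumours at or near the level that a count of 0 allows.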
